A study of Mus musculus with 36 samples.

Results

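The genes examined were 7 mouse translation elongation factor genes, Eef1a1, Eef1a2, Eef1b2, Eef1d, Eef1g, Eef2 and Eef2k, taken by name from the 16614 genes of a count table of brain libraries. All 7 were found, and their counts were followed through 36 libraries and their peaks of ribosome-protected fragments through 12 peak lists. Every library came from frozen whole brains of mice at postnatal day 5, with 10 brains pooled for a preparation. The mice were wild-type (WT) C57BL/6 or FMR1 KO animals, the latter listed in the study as FMR1-/y on the same background. Ribosomes were sedimented through sucrose, and ribosome-protected fragments (RPFs), the short stretches of mRNA that a ribosome shields from nuclease, were sequenced from the gradient pellet, labelled Granule, and from fraction 5/6, labelled Polysome. Whole brain homogenate gave the RNA-seq libraries. Each of these 3 library types was made from both genotypes in a standard and in a low nuclease preparation. The RPF libraries of the standard preparation were made with 10 mM MgCl2 and a high dose of nuclease at room temperature, and those of the low nuclease preparation with 2.5 mM MgCl2 and digestion in the cold. The RNA-seq libraries carry the same preparation labels, and no digestion is described for them. Each of the resulting 12 groups held 3 libraries. No cell type was selected, so all cells of the brain contributed, and in such bulk libraries fewer cells of a type and less RNA per cell cannot be told apart.

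In each round of elongation, eEF1A brings an aminoacyl-tRNA to the ribosome in a GTP-bound form, and eEF2 moves the ribosome on to the next codon. Eef1a1 encodes the general form of eEF1A, and Eef1a2 encodes the form that takes over in neurons and muscle after birth. The eEF1B complex reloads eEF1A with GTP, with Eef1b2 and Eef1d as its exchange subunits and Eef1g as a structural subunit. Eef2k encodes the calcium- and calmodulin-dependent kinase that inhibits eEF2, a step tied to synaptic activity. Most of these mRNAs, like those of ribosomal proteins, begin with a terminal oligopyrimidine (TOP) tract, through which mTOR signalling controls their loading onto ribosomes.

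The libraries differed in depth and composition in ways that touch these genes. Totals ran from 6765065 to 40174168 counts in the standard RPF libraries and from 112249206 to 147216378 in the standard RNA-seq libraries. Between 36.7% and 63.4% of the counts of each standard RPF library belonged to Cdk8, which was set aside, and levels are given as CPM, a gene's counts per 1000000 of the counts that remained. Fmr1, the gene targeted in the KO, stood at 4.79 to 10.7 CPM in the 6 FMR1 KO standard RPF libraries. It stood at 64.6 to 100.1 CPM in 5 of the 6 WT ones. The library labelled WT fraction 5/6 replicate 3 had 3.17 CPM of Fmr1, which goes against its label, and of all other libraries it was most like FMR1 KO pellet replicate 3 (r = 0.922 over 7068 genes). The differences and ratios that it moved most are given with and without it. In the low nuclease preparation, 10 genes took 82.4% to 85.0% of the counts of 3 RNA-seq libraries, replicate 2 of WT and replicates 2 and 3 of FMR1 KO. The 7 elongation factors together held as little as 0.033% of the counts there. Fitted differences and ranges of ratios from low nuclease RNA are therefore given with and without these 3 libraries. Without them the FMR1 KO values rest on 1 RNA-seq library. All 5 neuron markers were detected, with a summed level of 5313 to 8063 CPM in the standard pellet and 6244 to 7388 CPM in the standard RNA. The 3 red blood cell markers summed to 189 to 446 CPM in the standard RNA but to 3.43 to 13.7 CPM in the pellet. The 5 oligodendrocyte lineage markers summed to 426 to 781 CPM in that RNA and to 82.7 to 158 CPM in the pellet. The part of these cell types in the comparisons with RNA was not tested.

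Occupancy, the RPFs of a gene in the pellet relative to its RNA, did not move the elongation factors as a group. Together they took 0.746% to 1.24% of the counts without Cdk8 in the standard RNA and 0.224% to 0.378% in the standard pellet. In WT, Eef1a1, Eef1b2 and Eef1g had fewer pellet RPFs than their RNA would give on average over genes, and Eef1a2, Eef1d, Eef2 and Eef2k had more. All 7 genes passed the edgeR quasi-likelihood test at an adjusted p of 0.05, 4 higher and 3 lower, in a comparison in which 65.5% of all 16139 genes tested did. In FMR1 KO 6 of the 7 passed, 3 higher and 3 lower, beside 67.1% of all genes. With fraction 5/6 in place of the pellet, 5 of 7 passed in WT (55.9% of all genes) and 6 of 7 in FMR1 KO (62.9% of all genes). When the library labelled WT fraction 5/6 replicate 3 was left out, the WT differences of fraction 5/6 from RNA that had passed were still past the threshold, at -1.17 for Eef1a1, 1.88 for Eef1a2, 0.81 for Eef1d, -1.55 for Eef1g and 0.54 for Eef2k. The counts are thus close to or little above what any gene gave, and the direction and size of each gene carry the description. Differences are on the log2 scale throughout, and directions are relative to the bulk of genes, because the TMM scaling sets the middle of all genes near 0. With the plain library size, Cdk8 left out, the median over all genes moved by -1.15 in WT occupancy and -1.10 in FMR1 KO occupancy on the log2 scale. Under that scaling Eef1d, Eef2 and Eef2k fell below 0 in both genotypes, while Eef1a2 stayed above it and Eef1a1, Eef1b2 and Eef1g below it.

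**Figure D1:**
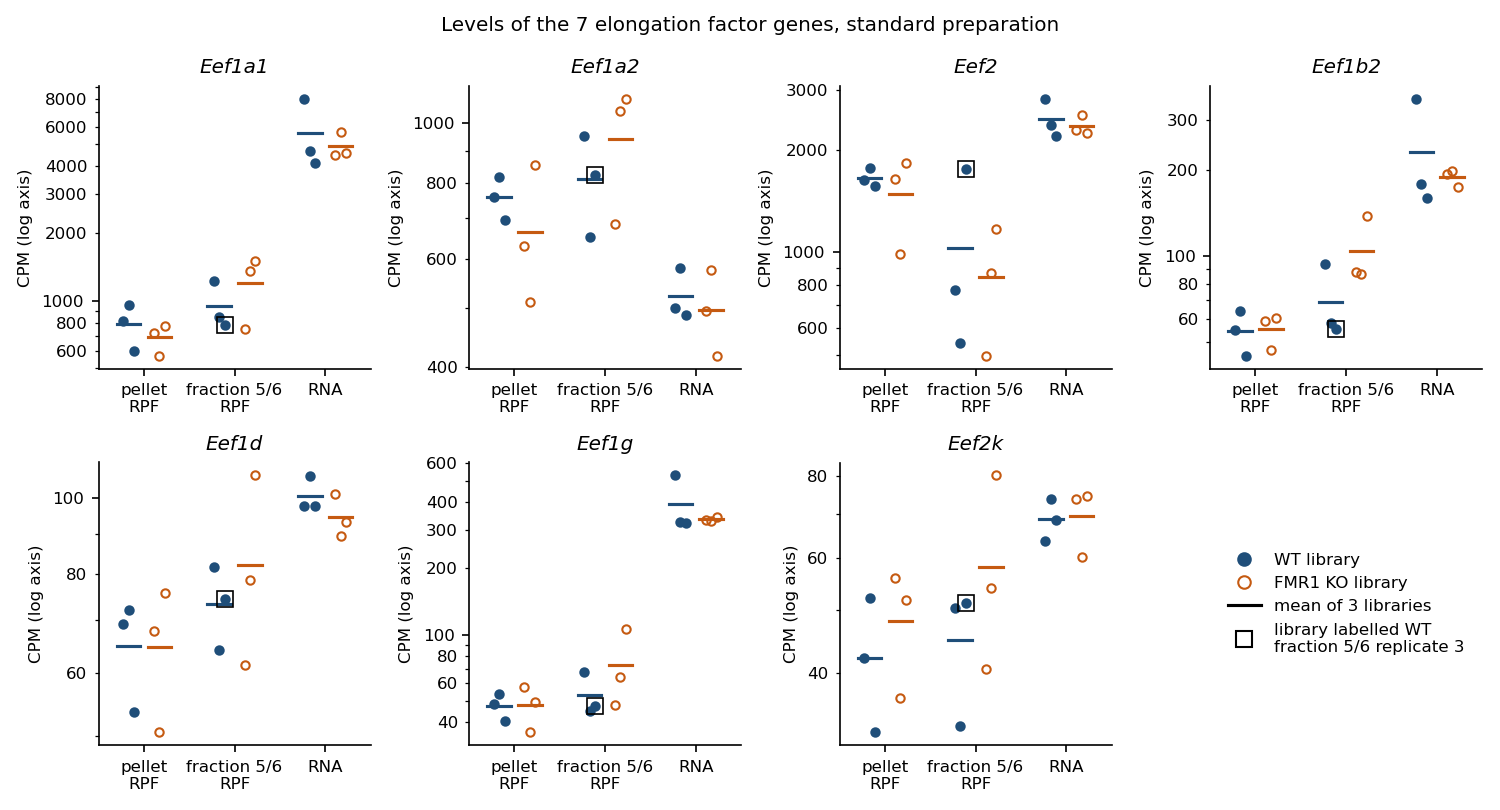
Level of each gene in CPM (Cdk8 left out, log axis) in the 18 libraries of the standard preparation. Points are libraries, horizontal lines are means of 3, and the square marks the library labelled WT fraction 5/6 replicate 3. Eef1a1, Eef1b2, Eef1g and Eef2 lie below their RNA level in both RPF fractions, and Eef1d and Eef2k do so in the pellet. Eef2 lies higher in the pellet than in most fraction 5/6 libraries.

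**Figure D2:**
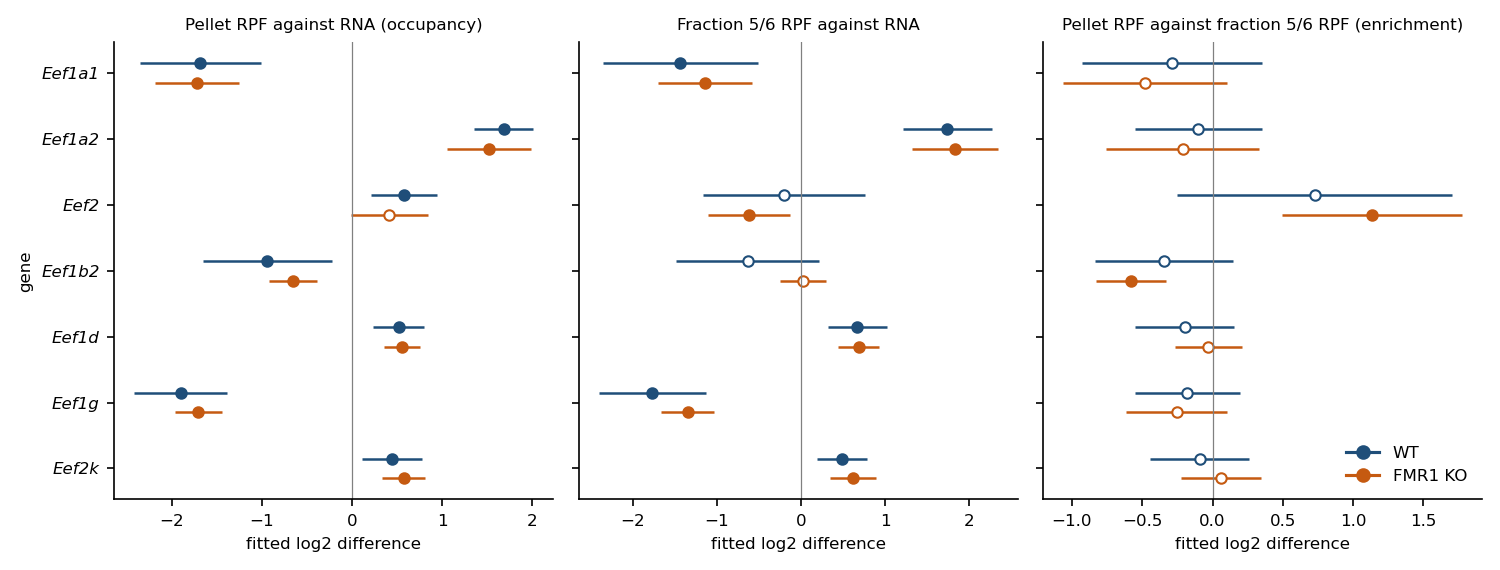
Fitted log2 difference with its 95% interval for each gene in 3 comparisons, WT in blue and FMR1 KO in orange. Filled points passed an adjusted p of 0.05 in edgeR's quasi-likelihood test. Eef1a1 and Eef1a2 lie on opposite sides of 0 against RNA, and Eef2 is the only gene above 0.5 between pellet and fraction 5/6.

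Eef1a1 (ENSMUSG00000037742), on the minus strand of chr9:78478449-78489151 in GRCm38, was the most abundant of the 7 in RNA. In WT RNA-seq libraries 1 to 3 it stood at 7976, 4669 and 4117 CPM, and in FMR1 KO at 4486, 5649 and 4576. The WT pellet gave 812, 957 and 601 CPM and the FMR1 KO pellet 722, 570.0 and 774. All pellet libraries thus lay below all RNA-seq libraries, by several fold, and WT RNA-seq replicate 1 was the highest of all. The WT occupancy was -1.68 ± 0.29 (SE), adjusted p = 0.00144, and that of FMR1 KO -1.72 ± 0.20 (SE), adjusted p = 0.000243. Fraction 5/6 showed the same side, with 1224, 844 and 778 CPM in WT and 751, 1356 and 1503 in FMR1 KO. Its difference from RNA was -1.44 ± 0.39 (SE), adjusted p = 0.0179 in WT and -1.14 ± 0.24 (SE), adjusted p = 0.00396 in FMR1 KO. The WT value did not pass without RNA-seq replicate 1, at -1.07 with an adjusted p of 0.061. In the low nuclease preparation the occupancy was -0.50 (adjusted p = 0.167) in WT and -0.50 (adjusted p = 0.304) in FMR1 KO, and fraction 5/6 against RNA was 0.09 and 0.04, with -0.40, -0.93, 0.18 and -0.39 without the 3 RNA-seq libraries named above. In WT the fall in fraction 5/6 was thus not seen in that preparation. Eef1a1 and Eef1a2 are 79.8% identical over 1389 aligned coding bases, but their longest identical run is 23 nt and none of the 1360 windows of 30 nt is shared. Reads from processed copies of Eef1a1 elsewhere in the genome could not be told apart from it here, since the handling of reads with several matches is not given in the sources used here.

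Eef1a1 also carried the most regular peaks. A peak is a place on the mRNA where RPFs pile up, and the middle of each deposited interval was taken as its position on the 1794 nt transcript, whose coding region runs from base 121 to base 1509. The 12 standard RPF libraries had 7 to 9 peaks each on Eef1a1, 94 in all, of which 93 lay in the coding region and 1, at base 83 in FMR1 KO fraction 5/6 replicate 3, before it. The mean was 7.67 ± 0.82 (SD, n = 6) in the pellet and 8 ± 0.89 (SD, n = 6) in fraction 5/6, a difference within the spread of libraries (exact permutation test, two-sided, p = 0.74). Neighbouring positions at most 6 nt apart were joined into 1 site, and 6 sites then recurred in all 6 pellet libraries, among them those at bases 846, 894, 946, 1197 and 1389. These are codons 242, 258, 276, 359 and 423 of 462 coding codons, in the later part of the message. In WT fraction 5/6 replicate 1 the peak at 1197 was replaced by one at 1210, and in WT fraction 5/6 replicate 2 that at 1389 by one at 1371. The sites other than these were found in all 12 libraries. When the library labelled WT fraction 5/6 replicate 3 was left out, the fraction 5/6 mean was 7.80 (exact permutation p = 1). The windows of 35 nt around 5 of the sites are shown because they are where RPFs repeatedly gathered on this mRNA, with aspartate and glutamate codons (GAT, GAC, GAA and GAG in frame) in capitals because the study asked about these codons at its peaks:
Eef1a1 position 846, chr9:78479653-78479687, minus strand, exon 5: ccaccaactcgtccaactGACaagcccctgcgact
Eef1a1 position 894, chr9:78479516-78479639, minus strand, exons 5 and 6 with the intron between them left out: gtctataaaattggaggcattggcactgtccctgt
Eef1a1 position 946, chr9:78479464-78479498, minus strand, exon 6: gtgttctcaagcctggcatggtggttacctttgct
Eef1a1 position 1197, chr9:78479128-78479162, minus strand, exon 7: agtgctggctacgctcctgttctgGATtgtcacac
Eef1a1 position 1389, chr9:78478837-78478970, minus strand, exons 7 and 8 with the intron between them left out: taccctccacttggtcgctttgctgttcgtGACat

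The tallest peak in the pellet was the one at 1389, with 390 to 951 RPFs, or 44.4 to 64.3 RPFs per 1000 Eef1a1 counts of the library. In fraction 5/6 the same site reached 49.8 to 64.1 per 1000 in the 5 libraries that had it. By its median over the pellet libraries, 37.4 per 1000, the site at 894 followed, with 32.8 to 46.9 in the pellet and 29.7 to 54.1 in fraction 5/6. The order did not hold in every library, since in WT pellet replicate 3 the site at 1197 was higher, at 36.4. The sites at 846, 946 and 1197 ran from 20.4 to 38.2 per 1000 in the pellet. Relative heights thus overlapped between the fractions at each of these sites. With peaks at or above the median height only, 3 of the 6 sites remained shared by all pellet libraries. Leaving out FMR1 KO pellet replicate 2 added the site at 444, for a total of 7. Positions may be off by 1 nt, since the counting base of the deposited intervals is not stated.

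**Figure D3:**
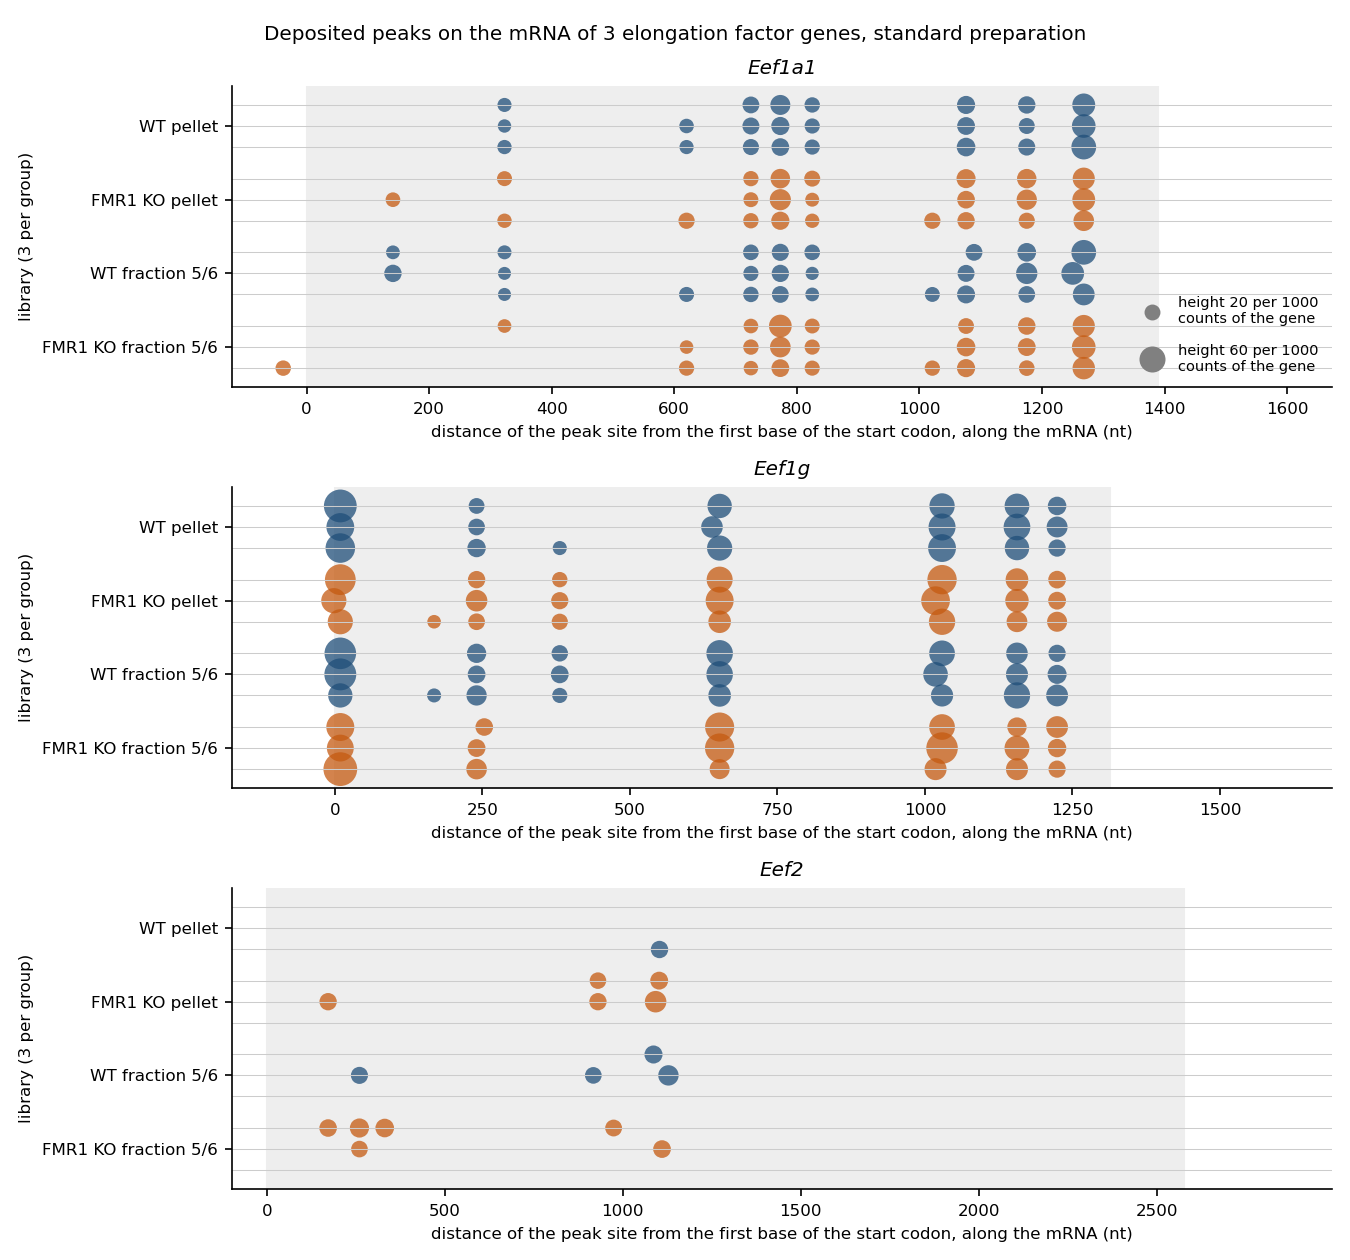
Position of each deposited peak on the mRNA of Eef1a1, Eef1g and Eef2, as distance in nt from the first base of the start codon, 1 line per library of the standard preparation. Circle area is the peak height per 1000 counts of the gene in that library, and the grey band is the coding region. Eef1a1 shows 6 sites in nearly every library, Eef1g peaks fall in the same wider stretches in most libraries, and Eef2 shows 0 to 4 peaks per library, 10 of its 16 between bases 1014 and 1225 of the mRNA.

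Eef1a2 (ENSMUSG00000016349; minus strand of chr2:181147653-181157014) showed the opposite side. In RNA it stood at 499, 581 and 487 CPM in WT and at 494, 577 and 418 in FMR1 KO. In the pellet it stood at 758, 818 and 697 CPM in WT and at 632, 511 and 854 in FMR1 KO. The WT pellet libraries all lay above the RNA-seq libraries, while in FMR1 KO pellet replicate 2 overlapped them. Occupancy was 1.69 ± 0.14 (SE), adjusted p = 3.80e-05 in WT and 1.52 ± 0.20 (SE), adjusted p = 0.000452 in FMR1 KO. That of WT is the highest of the 7 genes and higher than or equal to that of 91.1% of all genes tested. Fraction 5/6, at 953, 653 and 825 CPM in WT and 685, 1048 and 1097 in FMR1 KO, also lay above RNA, by 1.74 ± 0.22 and 1.83 ± 0.22 (SE). Occupancy stayed above 0 with low nuclease, at 1.00 (adjusted p = 0.00982, edgeR) in WT and 1.14 (adjusted p = 0.0369) in FMR1 KO. Without the 3 RNA-seq libraries it was 1.13 and 0.85, the FMR1 KO value resting on 1 RNA-seq library. Skeletal muscle also uses Eef1a2. All 4 muscle markers were in the table, and Ckm and Tnnt3 stood at or below 1.86 and 1.09 CPM in every library. Acta1 reached 314 CPM in WT pellet replicate 3 and 124 CPM in FMR1 KO pellet replicate 2, the libraries in which Eef1a2 was lowest of its group. In the low nuclease RPF libraries Mylpf alone of the 4 markers was high, at 195 to 687 CPM in replicates 2 and 3, where Acta1 stood at 4.32 to 8.61. The part of muscle RNA in these values was not tested. The 12 lists held 3 peaks on Eef1a2, none at a shared site, although its RPF counts were close to those of Eef1a1.

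The exchange between both eEF1A forms can be read within each library, where scaling has no part. This ratio and the ratio of Eef2 to Eef1a1 were chosen after their values had been seen, so they are given as a description, without a test, with the libraries of both genotypes pooled. In the standard RNA there were 0.0626 to 0.124 Eef1a2 counts per Eef1a1 count. The pellet had 0.855 to 1.16, a 9.72-fold higher ratio on average. Fraction 5/6 had 0.73 to 1.06, or 0.73 to 0.912 without the library at odds with its label. The RPF libraries and the RNA-seq libraries did not overlap. Between pellet and fraction 5/6 the ratio differed by 1.16-fold on average, and by 1.22-fold without the library labelled WT fraction 5/6 replicate 3, with ranges that overlap in both cases. With low nuclease the RNA ratio was higher, 0.262 to 0.349, or 0.262 to 0.278 without the 3 RNA-seq libraries in which few genes took most counts. The pellet ratio was 0.746 to 0.945, and the step was 2.99-fold over all libraries. The RNA ranges of the preparations did not overlap, whereas the pellet ranges did.

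The 3 subunits of eEF1B did not share a direction. Eef1g (ENSMUSG00000071644; plus strand of chr19:8967041-8978479) had the largest fall in WT occupancy and, level with Eef1a1, in FMR1 KO. It stood at 529, 325 and 323 CPM in WT RNA and at 48.4, 53.5 and 40.3 in the WT pellet. In FMR1 KO it stood at 331, 327 and 343 CPM in RNA and at 57.5, 36 and 49.6 in the pellet. Every pellet library lay below every RNA-seq library. The occupancy was -1.90 ± 0.22 (SE), adjusted p = 0.00019 in WT and -1.71 ± 0.11 (SE), adjusted p = 2.15e-05 in FMR1 KO. It kept its sign and its call in the low nuclease preparation, at -1.76 (adjusted p = 0.0016) and -1.48 (adjusted p = 0.0155), and stood at -1.64 and -1.99 without the 3 RNA-seq libraries. Fraction 5/6, at 67.9, 44.7 and 47.3 CPM in WT and 47.8, 64.1 and 106 in FMR1 KO, lay below RNA by a log2 difference of -1.77 and -1.35, both past the threshold.

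Eef1b2 (ENSMUSG00000025967; plus strand of chr1:63176825-63180486) fell as well, but less. Its RNA stood at 356, 179 and 160.1 CPM in WT and 194, 199 and 175 in FMR1 KO. Its pellet RPFs stood at 55.1, 64.4 and 44.7 CPM in WT and 59.1, 46.9 and 60.6 in FMR1 KO. The groups did not overlap, and WT RNA-seq replicate 1 was again the highest. Occupancy was -0.94 ± 0.31 (SE), adjusted p = 0.028 in WT and -0.66 ± 0.11 (SE), adjusted p = 0.00173 in FMR1 KO, and the WT value did not pass without WT pellet replicate 3 (-0.86, adjusted p = 0.0646). In fraction 5/6 it stood at 93.5, 58.2 and 55.4 CPM in WT and 87.7, 86.6 and 139 in FMR1 KO. Against RNA fraction 5/6 differed by -0.64 ± 0.36 (SE), adjusted p = 0.170 in WT, or -0.36 without the library at odds with its label, and by 0.03 ± 0.12 (SE), adjusted p = 0.862 in FMR1 KO. With TMM scaling in the standard preparation a fall was thus called in the pellet alone. With plain library size the FMR1 KO fraction 5/6 value also lay below 0. In the low nuclease preparation the FMR1 KO occupancy of Eef1b2 did not pass. In FMR1 KO every fraction 5/6 library was above every pellet library. Its enrichment, the pellet relative to fraction 5/6, was -0.58 ± 0.11 (SE), adjusted p = 0.0195 in FMR1 KO. That call was lost without FMR1 KO pellet replicate 1 or 3 or fraction 5/6 replicate 1 or 3, at -0.57, -0.54, -0.55 and -0.52. In WT it was -0.35 ± 0.20 (SE), adjusted p = 0.643, and -0.52 (adjusted p = 0.0558) without the library labelled WT fraction 5/6 replicate 3. With low nuclease the enrichment was -0.58 (adjusted p = 0.021) in WT and -0.57 (adjusted p = 0.0262) in FMR1 KO. Several small genes, among them Snora41, and Ndufs1 overlap Eef1b2, and without a stated strand setting their reads could not be told apart from it. The same holds for Eef1a1 with Gm26377, Eef1d with Naprt, Eef2 with Snord37 and Eef2k with Gm15774 and Gm45047.

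Eef1d (ENSMUSG00000055762; minus strand of chr15:75894205-75909556) was the subunit whose RPFs lay close to its RNA. It stood at 97.7, 106 and 97.6 CPM in WT RNA and 69.3, 72.1 and 53.6 in the WT pellet, and in FMR1 KO at 101, 89.5 and 93.1 in RNA and 67.8, 50.6 and 75.8 in the pellet. As plain CPM the pellet was below RNA in every library, whereas relative to the bulk of genes occupancy was 0.52 ± 0.12 (SE), adjusted p = 0.00647 in WT and 0.56 ± 0.08 (SE), adjusted p = 0.000985 in FMR1 KO. With plain library size it was -0.63 and -0.55, and in the low nuclease preparation -0.48 and -0.03, so its direction hangs on the scaling and the preparation. The WT value did not pass without WT pellet replicate 1 (0.41, adjusted p = 0.0546). In fraction 5/6 Eef1d stood at 81.7, 64.3 and 74.4 CPM in WT and 61.5, 78.7 and 107 in FMR1 KO, overlapping RNA in FMR1 KO alone. The ratio of Eef1g to Eef1d counts, free of scaling, was 3.06 to 5.42 in the standard RNA, 0.654 to 0.849 in the pellet and 0.635 to 0.991 in fraction 5/6, or 0.696 to 0.991 without the library at odds with its label. For Eef1b2 to Eef1d it was 1.64 to 3.65 in RNA and 0.796 to 0.927 in the pellet. In fraction 5/6 it was 0.744 to 1.43, or 0.906 to 1.43 without the library at odds with its label. With low nuclease Eef1g to Eef1d was 1.81 to 2.59 in RNA and 0.813 to 1.00 in the pellet, without overlap, whereas Eef1b2 to Eef1d was 1.07 to 2.264 in RNA and 0.742 to 1.22 in the pellet, which overlap. Without the 3 RNA-seq libraries in which few genes took most counts, the RNA range of Eef1g to Eef1d was unchanged. That of Eef1b2 to Eef1d was then 1.07 to 1.54 and still overlapped the pellet. Relative to Eef1d, both subunits thus had fewer counts in every standard pellet library than in any standard RNA-seq library. These ratios are given as a description, without a test.

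The peaks of the subunits differed too. Eef1g had 6 to 8 peaks in each library, 81 in all and 80 of them coding, although its counts were far lower than those of Eef1a1. Joined in the same way, they fell into stretches rather than at single bases. Stretches centred on bases 1330 and 1398 of the 1864 nt transcript held a peak in all 12 libraries, and that at 414 in 11, among them all 6 of the pellet. Their positions spanned 21.5, 15.5 and 15 nt over the libraries, beside 2 to 4 nt for the 6 Eef1a1 sites, so that peaks of different libraries in 1 stretch can lie more than 6 nt apart. When positions of the 6 pellet libraries alone were joined, 2 Eef1g sites recurred in all of them. A stretch at 183, close behind the start codon at 174, and another at 826 each held a peak in 11 libraries, 5 of them of the pellet, over 11 and 10.5 nt. The peaks at 183 held 66.2 to 113 RPFs per 1000 Eef1g counts in the pellet and 62 to 119 in fraction 5/6, or 75.7 to 119 without the library at odds with its label. The tallest peak of each library reached 72.7 to 113 RPFs per 1000 counts of the gene in the pellet and 72.3 to 119 in fraction 5/6, or 88.6 to 119 without the same library. The windows around the middle of the 3 stretches of all 6 pellet libraries are shown because RPFs gathered there in each of them, with the same codons in capitals:
Eef1g position 414, chr19:8969214-8969386, plus strand, exons 3 and 4 with the intron between them left out: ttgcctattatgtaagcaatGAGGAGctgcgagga
Eef1g position 1330, chr19:8977694-8977962, plus strand, exons 9 and 10 with the intron between them left out: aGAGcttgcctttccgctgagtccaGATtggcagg
Eef1g position 1398, chr19:8977996-8978030, plus strand, exon 10: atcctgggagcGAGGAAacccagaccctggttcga

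Eef1b2 had 1 to 11 peaks per library, of 3 to 29 RPFs each, and none recurred in all 6 pellet libraries. The 12 lists held 0 peaks on the 896 nt Eef1d transcript. For each of the 7 genes, peaks were read only on the transcript that the count table names. Other isoforms of the 7 held 1 peak in WT fraction 5/6 replicate 1 and 1 in WT pellet replicate 2, which are not included.

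Eef2 (ENSMUSG00000034994; plus strand of chr10:81176631-81182498) was the factor with the largest difference between both ribosome fractions, and Eef1b2 lay on the other side. In the WT pellet it stood at 1635, 1766 and 1565 CPM, and in WT fraction 5/6 at 776, 542 and 1763, the last value being that of the library at odds with its label. In the FMR1 KO pellet it stood at 1648, 987 and 1830 CPM and in fraction 5/6 at 497, 869 and 1171. In WT the other fraction 5/6 libraries lay far below every pellet library, while in FMR1 KO pellet replicate 2 fell below the highest fraction 5/6 library. None of the 7 genes passed the edgeR test of enrichment in WT, where 0.023% of 13063 genes did; none had an unadjusted p under 0.05 and DESeq2 called none either. For Eef2 the WT value was 0.73 ± 0.40 (SE), adjusted p = 0.643. Without the library labelled WT fraction 5/6 replicate 3, 9.64% of genes passed, and of the 7 only Eef2 did, at 1.27 ± 0.16 (SE), adjusted p = 0.0137. In FMR1 KO 11.5% of genes passed, and Eef2 (1.14 ± 0.27 (SE), adjusted p = 0.0432) and Eef1b2 were the 2 of 7. With plain library size the FMR1 KO value was 0.82 (adjusted p = 0.386). Leaving out FMR1 KO pellet replicate 1 or 3 or fraction 5/6 replicate 1 or 3 kept the size of the Eef2 difference, at 1.09, 1.07, 0.96 and 1.24, and raised its adjusted p to between 0.0978 and 0.14.

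The low nuclease preparation gave the same order for Eef2 from other libraries. There it stood at 1820, 1833 and 1641 CPM in the WT pellet against 877, 1217 and 792 in fraction 5/6, and in FMR1 KO at 1659, 1515 and 1456 against 949, 948 and 1232. Pellet and fraction did not overlap in either genotype. Of the 7 genes, 3 passed in WT, beside 22.9% of all genes: Eef2 at 0.99 ± 0.25 (SE), adjusted p = 0.036, Eef1b2, and Eef1g at -0.45 ± 0.11 (SE), adjusted p = 0.0352. In FMR1 KO 2 passed, beside 20.6% of all genes, Eef2 at 0.76 ± 0.20 (SE), adjusted p = 0.0451 and Eef1b2. Eef2 was the only one of the 7 above 0 in these 4 enrichment fits apart from Eef2k, whose value was 0.06 in FMR1 KO in the standard preparation and not past the threshold.

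Within libraries, Eef2 counts per Eef1a1 count were 1.73 to 2.6 in the standard pellet. In fraction 5/6 they were 0.633 to 0.779 in 5 libraries and 2.264 in the library labelled WT fraction 5/6 replicate 3. The ratio was 2.58-fold higher in the pellet on average, and 3.16-fold without that library. With low nuclease it was 1.66 to 1.94 in the pellet against 0.546 to 0.795 in fraction 5/6, a 2.65-fold step without overlap. In RNA the ratio was 0.355 to 0.536 in the standard preparation, below every RPF library of it. With low nuclease it was 0.548 to 0.956 in RNA, which overlapped fraction 5/6, and fraction 5/6 was 0.846-fold RNA on average over all libraries. Without the 3 RNA-seq libraries in which few genes took most counts, the RNA ratio was 0.847 to 0.956. That range lay above every fraction 5/6 library of the preparation. The pellet libraries thus lay above the fraction 5/6 libraries in both preparations, apart from the library at odds with its label.

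**Figure D4:**
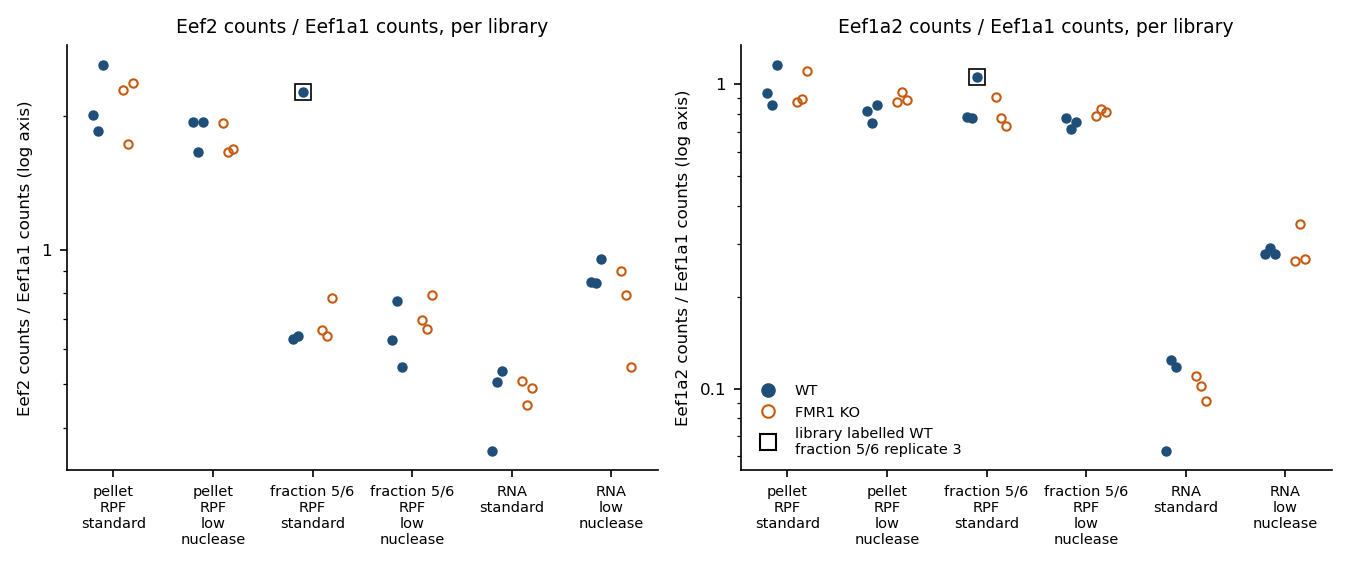
Ratio of Eef2 to Eef1a1 counts (left) and of Eef1a2 to Eef1a1 counts (right) in each of the 36 libraries, on log axes, by library type and preparation. The square marks the library labelled WT fraction 5/6 replicate 3. Eef2 to Eef1a1 lies at 1.66 or above in all 12 pellet libraries and at or below 0.795 in all fraction 5/6 libraries except that 1.

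Against RNA, Eef2 lay near the bulk of genes. Its RNA stood at 2830, 2367 and 2207 CPM in WT and 2286, 2543 and 2248 in FMR1 KO, above every RPF library as plain CPM. Occupancy was 0.58 ± 0.16 (SE), adjusted p = 0.0138 in WT and 0.41 ± 0.18 (SE), adjusted p = 0.0796 in FMR1 KO, where it missed the threshold in edgeR and passed in DESeq2 (adjusted p = 0.00213). Without FMR1 KO pellet replicate 2 it passed (0.48, adjusted p = 0.0118), and without WT RNA-seq replicate 3 the WT value did not (0.49, adjusted p = 0.0592). With plain library size the values were -0.57 in WT and -0.66 in FMR1 KO. Fraction 5/6 differed from RNA by -0.62 (adjusted p = 0.0327) in FMR1 KO and by -0.20 (adjusted p = 0.696) in WT, or -0.64 (adjusted p = 0.0512) in WT without the library at odds with its label. The FMR1 KO value lost its call without fraction 5/6 replicate 1 (-0.46) and without RNA-seq replicate 1, 2 or 3 (-0.63, -0.51 and -0.65).

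Eef2 gave the highest pellet level of the 7 per kilobase of coding region, yet few peaks. Per coding kilobase the WT pellet held 642 ± 39.5 CPM of Eef2 (SD, n = 3), 569 ± 129 of Eef1a1 and 544 ± 43.4 of Eef1a2, of which neighbours overlap from library to library while the WT libraries of Eef2 and Eef1a2 do not. Eef1d at 84 ± 12.9 and Eef1b2 at 80.7 ± 14.5 followed and overlapped each other, then Eef1g at 36.1 ± 5.04 and Eef2k at 19.4 ± 4.49. Per transcript kilobase of WT RNA the order was another, with Eef1a1 at 3115 ± 1163 CPM, Eef2 at 799 ± 105, Eef1a2 at 251 ± 24.6 and Eef1g at 211 ± 63.6, the last pair overlapping. Eef1b2 at 120 ± 55.8 and Eef1d at 112 ± 5.67 overlapped as well, and Eef2k was lowest at 27 ± 2. On Eef2 the lists held 16 peaks in all, 6 in 3 of the pellet libraries and 10 in 4 of the fraction 5/6 libraries, and none at a site shared by all libraries of a fraction. Of the 16, 10 lay between bases 1014 and 1225. Pellet RPFs on Eef2 were thus about as dense as on Eef1a1, with no site that recurred in every pellet library.

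Eef2k (ENSMUSG00000035064; plus strand of chr7:120842831-120907450), which encodes the kinase that inhibits eEF2, was the least abundant of the 7 for its length. It stood at 63.6, 73.8 and 68.4 CPM in WT RNA, 42.2, 52.1 and 32.5 in the WT pellet and 50.3, 33.3 and 51.2 in WT fraction 5/6. In FMR1 KO it stood at 73.8, 60.2 and 74.4 CPM in RNA, 55.9, 36.7 and 51.7 in the pellet and 40.5, 53.9 and 80.1 in fraction 5/6. Pellet and fraction 5/6 overlapped in both genotypes, and as plain CPM every pellet library was below every RNA-seq library. Relative to the bulk of genes, occupancy was 0.44 ± 0.14 (SE), adjusted p = 0.0262 in WT and 0.57 ± 0.10 (SE), adjusted p = 0.00191 in FMR1 KO. In fraction 5/6 against RNA it was 0.49 ± 0.13 (SE), adjusted p = 0.0149 in WT, or 0.48 (adjusted p = 0.0542) without RNA-seq replicate 3, and 0.62 ± 0.12 (SE), adjusted p = 0.00274 in FMR1 KO. The WT occupancy call was lost without pellet replicate 1 (0.38) or 2 (0.31) or RNA-seq replicate 1 (0.41) or 3 (0.43). Plain library size turned it to -0.70 and -0.53, and the low nuclease preparation to -0.22 and -0.04. Per Eef2 count there were 0.0208 to 0.0372 Eef2k counts in the standard pellet and 0.0225 to 0.0331 in RNA. Fraction 5/6 held 0.0613 to 0.0816 in 5 libraries, all above the pellet, and 0.0291 in the library labelled WT fraction 5/6 replicate 3. The lists held 2 peaks on Eef2k, of 6 RPFs in WT fraction 5/6 replicate 1 and of 4 RPFs in the library labelled WT fraction 5/6 replicate 3.

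Between FMR1 KO and WT the test found no difference in the elongation factors. In pellet RPFs 0 of 7 genes passed in edgeR (0.015% of all genes did), with log2 differences of FMR1 KO from WT of -0.16 to 0.23 and 95% intervals that together spanned -0.54 to 0.55. In fraction 5/6 0 of 7 passed (0% of all genes), with -0.59 to 0.26 and intervals spanning -1.62 to 0.77. In RNA 0 of 7 passed (0.0736% of all genes), with -0.26 to 0.04 and -0.87 to 0.41. The change of occupancy with genotype was -0.13 to 0.32 (0 of 7, 0.0673% of all genes), and that of enrichment -0.20 to 0.44 (0 of 7, 0% of all genes). In each of these 5 comparisons no gene of the 7 had an unadjusted p under 0.05, and DESeq2 called none. The widest interval in fraction 5/6 was that of Eef2, -1.62 to 0.44, whose value of -0.59 became -0.07 once the library labelled WT fraction 5/6 replicate 3 was left out. The enrichment difference of Eef2 likewise went from 0.44 to -0.11. The narrowest interval in the pellet was that of Eef1d, -0.22 to 0.28.

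Between the preparations, which differ in MgCl2, nuclease and temperature at once, all 7 genes had fitted values above 0 (standard against low nuclease RPF libraries) relative to the bulk of genes, most of which turned below 0 with plain library size. They were 0.10 to 0.49 in the WT pellet, 0.16 to 0.56 in the FMR1 KO pellet, 0.01 to 0.83 in WT fraction 5/6 (0.12 for Eef1g to 0.66 for Eef1d without the library labelled WT fraction 5/6 replicate 3, where Eef2 went from 0.83 to 0.26) and 0.09 to 0.47 in FMR1 KO fraction 5/6. In the WT pellet 3 of 7 passed (38.9% of all genes), Eef1a2 at 0.49 ± 0.12 (SE), adjusted p = 0.0239, Eef1d at 0.47 and Eef2 at 0.43. In the FMR1 KO pellet Eef1d alone passed (0.56 ± 0.11 (SE), adjusted p = 0.0284; 16.7% of all genes), and in WT fraction 5/6 Eef1d again (0.65 ± 0.15 (SE), adjusted p = 0.0466; 9.19% of all genes). In FMR1 KO fraction 5/6 Eef1b2 (0.42) and Eef1d (0.47) passed, 2 of 7 beside 20.7% of all genes. Eef1d was thus called in all 4 comparisons. With plain library size the medians of all genes moved by -0.43 to -0.77 and 0 of the 7 passed in any of the 4. Single libraries also ended these calls without moving the values far. In the WT pellet all 3 were lost without standard replicate 1 or low nuclease replicate 1 or 3, Eef1a2 and Eef2 without standard replicate 2, and Eef2 without standard replicate 3, at 0.40 to 0.56. In the FMR1 KO pellet Eef1d was lost without standard replicate 1, 2 or 3 or low nuclease replicate 2 or 3, at 0.49 to 0.56, and Eef2k passed without low nuclease replicate 1, at 0.58. In WT fraction 5/6 Eef1d was lost without standard replicate 1 or 2 or low nuclease replicate 1, 2 or 3, at 0.52 to 0.69, and kept its call without the library labelled WT fraction 5/6 replicate 3, at 0.66. In FMR1 KO fraction 5/6 Eef1b2 and Eef1d were both lost without standard replicate 1, 2 or 3 or low nuclease replicate 2 or 3, at 0.37 to 0.51.

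Other genes of the pathway were read from lists assembled by function. Of 77 cytosolic ribosomal protein genes, whose mRNAs are the best known TOP mRNAs, 73 fell in WT occupancy and the other 4 did not pass, with a median of -2.59 beside -0.11 over all genes, of which 65.5% passed in either direction. The largest falls were those of Rpl39 (-7.56), Rpl41 (-5.97) and Rps12 (-4.84). How reads with several matches were counted is not given in the sources used here, and its part in these falls was not tested. Eef1a1, Eef1b2 and Eef1g thus lay on the same side as the ribosomal protein genes, with smaller falls than their median, while Eef1a2, Eef1d, Eef2 and Eef2k lay on the other. Of 11 other TOP mRNAs 2 rose, Vim (1.81), an intermediate filament, and Nap1l1 (0.38), a histone chaperone, and 2 fell, Tpt1 (-3.30) and Pabpc1 (-1.25), the poly(A) binding protein, with a median of -0.03, so that 4 of 11 passed beside 65.5% of all genes. In FMR1 KO 74 of the 77 ribosomal protein genes fell and 1, Rpl22, rose, a gene named here after its value was seen (3.63), beside 67.1% of all genes in either direction. Plain library size lowers every value by about the shift given above, which takes rises smaller than that below 0.

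Of 18 accessory elongation genes 8 rose and 4 fell in WT occupancy, with a median of -0.07, and these 12 of 18 are near the share of all genes, 65.5%. Vars, the valyl-tRNA synthetase that binds the eEF1 complex, rose by 1.43, Eef1aknmt, a methyltransferase of eEF1A, by 1.25, and Dph2, an enzyme of the diphthamide modification of eEF2, by 1.18. Dph3, of the same modification, fell by 2.37, Eif5a2, a form of the factor that relieves stalled elongation, by 2.07, and Eef2kmt, which methylates eEF2, by 0.88. Of 5 mitochondrial elongation genes 3 rose, Gfm1 (1.70), Gfm2 (1.12) and Tsfm (0.81), and Tufm fell by 0.36, with a median of 0.81. Of 11 regulators of eEF2 kinase 4 rose, led by Mtor (1.77), Ppp2ca (0.95) and Prkaa1 (0.88), and 2 fell, Calm3 (-1.34) and Rps6kb1 (-0.42), with a median of 0.13. The same 65.5% is the background of both lists. In FMR1 KO the counts were 7 up and 5 down, 3 up and 1 down, and 4 up and 3 down in these 3 lists, beside 67.1% of all genes.

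Between pellet and fraction 5/6 the medians of the 5 lists in WT lay between -0.25 for the ribosomal proteins and 0.14 for the mitochondrial genes, and between -0.44 and 0.19 for the same lists without the library at odds with its label, where 2 ribosomal protein genes of 76 were called higher and 4 lower beside 9.64% of all genes in either direction. In FMR1 KO 10 of 76 ribosomal protein genes tested were lower in the pellet, with a median of -0.50 beside -0.04 over all genes. The share of all genes that passed in either direction was 11.5%, of which 1206 genes were higher and 319 lower. Eef1b2 and, without a call, Eef1a1, Eef1g and Eef1a2 lay on that side, while Eef1d was near the middle of all genes. Of the other lists, 4 genes passed and are named for that reason. Vars (1.11) and Mtor (2.53) were higher in the pellet, and Eef1akmt2 (-0.70), a methyltransferase of eEF1A, and Npm1 (-0.61) were lower.

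**Figure D5:**
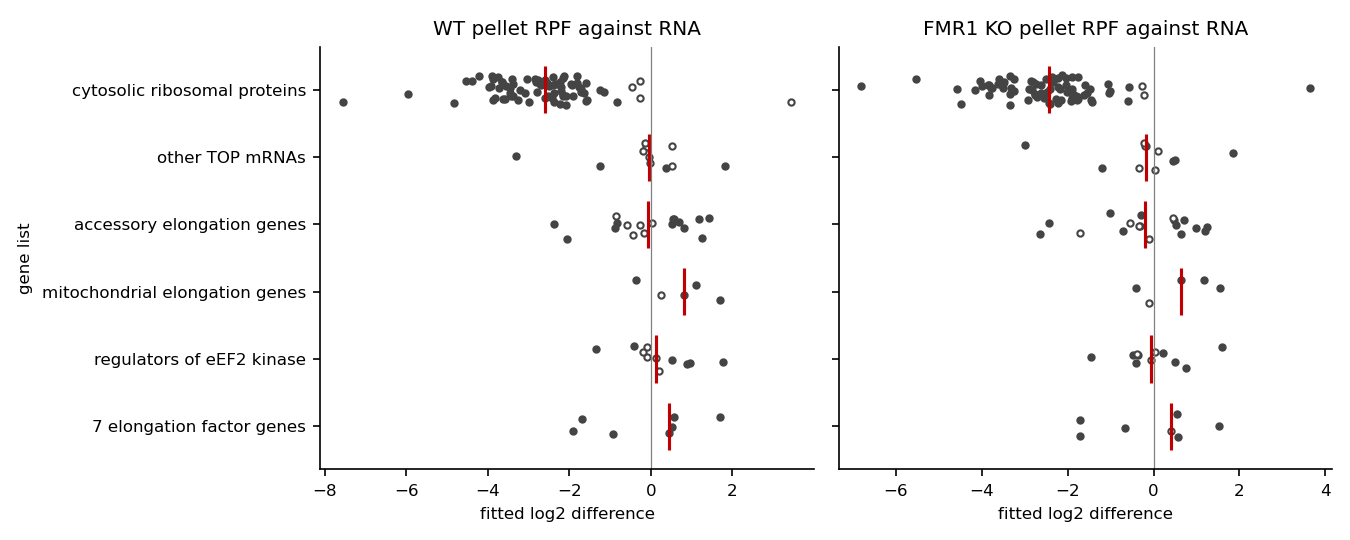
Fitted log2 difference of pellet RPF from RNA for each gene of 5 functional lists and for the 7 elongation factor genes, in WT (left) and FMR1 KO (right). Filled points passed an adjusted p of 0.05 in edgeR and red lines are medians. The ribosomal protein genes lie mostly below -1, and the 7 elongation factor genes lie on both sides of 0.

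Over all 36 libraries, the genes whose log2 CPM followed each elongation factor most closely differed between them as well. For Eef1a1 they were Rpl7 (Pearson r = 0.989), Ilk and Taf10, and for Eef1g they were Fau (r = 0.986), Nr1i3 and Rpl11, so that a ribosomal protein gene led in both. For Eef1a2 they were Puf60 (r = 0.993), Atp5a1 and Abcf3, and for Eef2 Gak (r = 0.979), Cog1 and Ibtk. For Eef1b2 they were Use1 (r = 0.976), Pdrg1 and Ndufb9, for Eef1d Irf2bpl (r = 0.984), Fam110a and Fam43b, and for Eef2k Itpkc (r = 0.986), Crtc1 and Irf2bpl. Among the 7, Eef1a1 was close to Eef1b2 (r = 0.951) and Eef1g (r = 0.931) but not to Eef1a2 (r = 0.467), and Eef1d was close to Eef2k (r = 0.976). These correlations describe 9468 genes and share the libraries' composition, including the 3 RNA-seq libraries in which few genes took most counts, and no test was made of them.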

How the data were processed

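Ribosome-protected fragments and RNA were sequenced from pooled mouse brains, in 12 groups of 3 libraries. The count table was deposited as whole read counts per gene, which the authors made with cutadapt 2.10, Bowtie2 2.3.5, STAR 2.7.8a, Picard, SAMtools 1.19.2 and featureCounts 2.2.0 on GRCm38, by the study's methods and the submitters' processing notes. The study's methods state that duplicate reads were removed. In standard WT pellet replicate 1 the counts were 17282 for Eef1a1 on its 1794 nt transcript and 34781 for Eef2 on 3089 nt. Both counts exceed the number of bases in the transcript. Whether the removal applies to the deposited counts, and how far it capped counts of short abundant mRNAs, was not tested. Linker barcodes mark samples, not molecules. Handling of strand and of reads with several matches is not given in the sources used here. Peak lists of the 12 standard RPF libraries were deposited with a peak height in RPFs (unit signal), and whether the study's rule of a peak against the transcript average had been applied to them is not stated.

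Protein-coding genes (16561 by GENCODE M21 biotypes; 27 of the table's genes had no match) were kept with filterByExpr, scaled by TMM and tested with edgeR 4.0.16 in R 4.3.3, using quasi-likelihood tests and adjusting p over all genes tested by Benjamini-Hochberg (threshold 0.05), each comparison on its own groups. The standard error is the log2 difference divided by the square root of F. The fit was tested on simulated data. Numbers of peaks were compared with exact permutation tests in scipy 1.17.1, two-sided, and ratios are described without a test. Alternatives were DESeq2 1.42.0, plain library size without Cdk8, Cdk8 left out before TMM, no filter on low counts, all biotypes, 1 fit over all groups, the replicate number as a block, the low nuclease libraries and each library left out in turn. Low nuclease libraries less 3 RNA-seq libraries, and the ratios, were chosen after seeing the data. Named were all 7 elongation factors, for each the 3 genes most correlated over 36 libraries (mean of at least 10 CPM, log2 with a prior count of 2), and from each list at most 3 called genes in each direction in WT occupancy. The members and lists were chosen with earlier results of these data known. The study speaks of biological replicates, while the labels do not say which libraries share a pool of mice, and p-values measure the spread between these libraries. Windows of 35 nt were read from GRCm38. The window of 1 Eef1a1 site and codon counts in the windows are not reported here.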

Additional observations from a re-analysis of the deposited data

How the results depend on the processing

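Of 1568 values of the 7 genes under alternatives, 93 lost a call, 12 gained one and 1433 kept their side of the threshold. The other 30 turned their sign, with a call in the main fit, in the alternative or in both. In 125 of the 1568 the sign changed between values that both had no call. With plain library size, Cdk8 left out, WT occupancy became -0.63 for Eef1d, -0.57 for Eef2 and -0.70 for Eef2k, and FMR1 KO occupancy -0.55 for Eef1d and -0.53 for Eef2k. Fraction 5/6 against RNA became -0.45 for Eef1d and -0.60 for Eef2k in WT, and -0.85 for Eef1b2, -0.19 for Eef1d and -0.25 for Eef2k in FMR1 KO. The preparation differences became -0.034 for Eef1a2, -0.054 for Eef1d and -0.096 for Eef2 in the WT pellet and -0.15 for Eef1d in WT fraction 5/6. These turns follow from the shift of all genes under that scaling.

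In the low nuclease libraries occupancy was -0.48 for Eef1d and -0.22 for Eef2k in WT, and -0.029 and -0.039 in FMR1 KO, and fraction 5/6 against RNA was 0.090 for Eef1a1 and -0.21 for Eef1d in WT and 0.042 for Eef1a1 in FMR1 KO. Less the 3 RNA-seq libraries these were -0.42 and -0.18, -0.49 and -0.51, 0.18 and -0.17, and in FMR1 KO fraction 5/6 -0.55 for Eef1b2, -0.32 for Eef1d and -0.30 for Eef2k, the FMR1 KO values resting on 1 RNA-seq library that is assumed to vary like the others. The cause was not tested.

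Counts of the 7 genes past the threshold in the low nuclease libraries were 3 in WT occupancy, 2 in FMR1 KO occupancy, 2 in fraction 5/6 against RNA in each genotype and 3 in WT enrichment, and less the 3 RNA-seq libraries 3, 3, 2 and 3 in the first 4. For FMR1 KO enrichment the count was 0 with plain library size, 1 without a filter and 1 in 1 fit over 12 groups. For the preparations it was 0 in all 4 with plain library size, 0, 2 and 1 (WT pellet, WT fraction 5/6, FMR1 KO fraction 5/6) in the fit over 12 groups, 2 with DESeq2 in the FMR1 KO pellet and in WT fraction 5/6, and 0 in WT fraction 5/6 without a filter or with Cdk8 left out before TMM. With each library left out in turn, counts ran from 5 to 7 in WT occupancy, 6 to 7 in FMR1 KO occupancy, 4 to 5 and 5 to 6 in fraction 5/6 against RNA (WT, FMR1 KO), 0 to 1 in WT and 0 to 2 in FMR1 KO enrichment, 0 to 3 and 0 to 2 in the pellet preparations, 0 to 1 and 0 to 2 in those of fraction 5/6, and stayed at 0 for genotype and its interactions. Shared Eef1a1 peak sites numbered 3 with peaks of at least median height.

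Deviations of libraries with the same replicate number correlated at -0.12 to 0.25, above 0 in all 3 pairs of some comparisons, both enrichments among them, but above 0.1 in all 3 of none, which was the limit for taking the numbers as pairs. With a replicate block the counts were 0 in FMR1 KO enrichment, 1 in the WT pellet preparation and 0 in the other 3 preparation comparisons, and otherwise as reported. The lowest depth among the standard RPF libraries was 6765065 counts.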
